A study of Homo sapiens with 24 samples.

Results

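8-amino-adenosine (8AA) is an analog of the ribonucleoside adenosine that carries an amino group on the base. The data described here are the RNA sequencing of MV4-11 cells treated with 1 μM 8AA for 8 h, set against untreated MV4-11 cells of 8 h. They are 4 of the 24 libraries of the series, 2 in each group (replicates A and B), and were chosen by their labels. MV4-11 is an established human acute myeloid leukemia (AML) line with a KMT2A rearrangement and an internal duplication in FLT3, a receptor kinase, and the labels give its genotype as WT. The other libraries used for comparison are MV4-11 cells treated with 1 μM 8-chloro-adenosine (8CA) for 8 h, MV4-11 cells untreated or treated with 1 μM 8AA at 24 h, and KG-1a cells, a CD34-positive AML line, untreated or treated with 1 μM 8AA for 8 h, each with 2 libraries. All cells were grown in medium with serum, and no vehicle is named for the untreated cells. The labels do not say whether A and B came from separate cultures, so the p-values measure the spread between these libraries, which may be technical.

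Both analogs are phosphorylated inside cells and are known to act mainly on RNA, where they can slow transcription and polyadenylation. Transcripts that are made and degraded quickly respond to a transcription inhibitor first, whereas stable transcripts lag behind. A fast-growing leukemia cell depends on growth factor signalling, amino acid supply, protein folding and ribosome production, and the genes of these processes are described first.

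The table holds 23354 genes, of which 12800 had enough reads to be tested. The total counts were 20368494 and 22183918 in the untreated libraries and 20132102 and 24181318 in the 8AA libraries. The replicates of a group were separate libraries by their counts, with a chi-square per degree of freedom, 1 for sampling noise alone, of 4.33 in the untreated and 5.20 in the 8AA pair. Levels are read counts relative to library size (CPM) after scaling by TMM (trimmed mean of M-values), and each change is a log2 fold change of 8AA over untreated from edgeR's quasi-likelihood test, with its standard error (SE) and the p adjusted by Benjamini-Hochberg over all genes tested. The word called marks an adjusted p under 0.05. The libraries had the markers of this line, with LYZ (lysozyme) at 3063 to 3672 CPM, IRF8 at 985 to 1061 CPM and FLT3 at 415 to 514 CPM, while CD14 stayed below 0.185 CPM. Of 30 markers of other cell types, 15 were at 0 in all 4 libraries, including the T cell genes CD3D, CD3E, CD3G and CD2. The summed level of the 30 was 42.9 and 43.9 CPM in the untreated and 48.3 and 54.8 CPM in the 8AA libraries, mostly from PECAM1 and NKG7, and 0 of the 9 that could be tested were called. HBB and ALAS2, 2 erythroid genes, had reads in 8AA replicate B only, at 0.949 and 1.11 CPM.

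After 8 h of 8AA, 3742 genes were called, which is 29.2% of those tested. Of these, 2000 were lower (15.6% of those tested) and 1742 were higher (13.6%). Most changes were small. The median absolute log2 fold change of the called genes was 0.32, or 1.25-fold, and 94.8% of them changed by less than 2-fold. With 2 libraries a group, groups that do not overlap are common, at 7953 genes or 62.1% of those tested and 3741 of the 3742 called. Among the larger changes, rises outnumbered falls, with 152 genes at least 2-fold higher and 42 at least 2-fold lower. Rises also outnumbered falls among all calls at low levels, with 73 against 18 below a mean of 1 CPM and 136 against 33 from 1 to 3 CPM. Fewer transcripts per cell in all genes alike cannot be seen in these values, which are relative within a library. The split of the calls depended on the scaling, which gave 1512 falls and 2388 rises when only the library size was used, and 1473 falls and 2395 rises with upper-quartile scaling. Under these scalings the median log2 fold change over all genes was 0.05, against 0.01 with TMM.

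**Figure D1:**
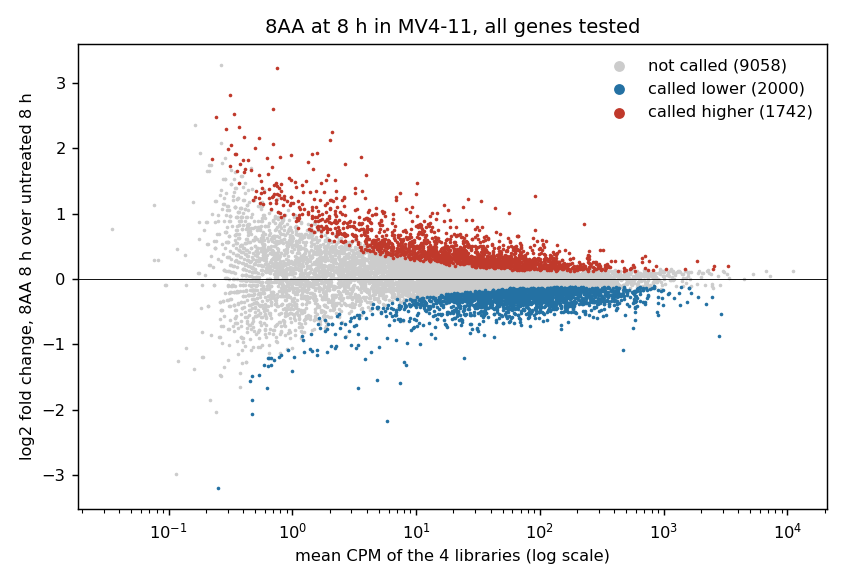
Log2 fold change of 8AA 8 h over untreated 8 h (vertical axis) against the mean CPM of the 4 libraries (horizontal axis, log scale), 1 point for each of 12800 genes tested. Blue points are the 2000 genes called lower and red points the 1742 called higher, and the called falls lie mostly among well expressed genes.

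The direction of the calls followed the level of the gene. Of 2454 genes at 100 CPM or more, 32.2% were lower and 9.62% higher, whereas of 1535 genes between 3 and 10 CPM, 5.73% were lower and 20.5% higher. The test is more sensitive at high counts, and the median log2 fold changes over all genes of these 2 levels were -0.07 and 0.14. Shares by the genomic span of the gene were as follows. Genes spanning 300 kb or more were lower in 6.85% and higher in 16.7% of 336 cases, with a median of 0.09, and genes spanning less than 10 kb were lower in 13.0% and higher in 12.6% of 3094 cases, with a median of 0.03. The long genes had a median level of 14.2 CPM and the short ones of 17.0 CPM. Scaling by library size only raised these 2 medians to 0.13 and 0.07.

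Several of the deepest falls were in genes that stand at the end of the growth factor and ERK kinase pathway. ETV4, an ETS transcription factor induced by ERK signalling, was at 10.1 and 8.96 CPM in the untreated libraries and at 1.67 and 2.48 CPM with 8AA, the largest fall of all called genes with a mean of at least 2 CPM (log2 fold change -2.18, SE 0.15, adjusted p = 2.16e-07). Its relative ETV5 went from 11.2 and 11.04 CPM to 3.78 and 3.63 CPM (log2 fold change -1.59, SE 0.15, adjusted p = 2.71e-06). The 2 groups lay far apart for both genes. EGR1, an immediate early zinc finger factor, went from 8.43 and 5.87 CPM to 2.51 and 2.35 CPM (log2 fold change -1.55, SE 0.18, adjusted p = 1.85e-05), and FOS, a subunit of AP-1, from 39.7 and 27.6 CPM to 15.97 and 13.4 CPM (log2 fold change -1.200, SE 0.17, adjusted p = 0.000117). For FOS the untreated libraries differed more between themselves than the treated ones did, and both still lay above both 8AA libraries. FOSL1, another AP-1 subunit, fell with little spread, from 18.7 and 18.5 CPM to 9.92 and 9.903 CPM (log2 fold change -0.91). Of the feedback inhibitors of the pathway, DUSP6 (an ERK phosphatase) and SPRED2 fell less, with log2 fold changes of -0.47 and -0.43. DUSP5 (0.14), SPRY2 (-0.37) and DUSP4 (-0.71) were not called (edgeR adjusted p = 0.641, 0.251 and 0.255). Of 18 tested genes of a list of ERK output, 9 were lower and 0 higher, with a median of -0.46, but this list was put together after the values had been seen and is a description only.

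Some genes of the FLT3 receptor and its STAT5 arm rose and others fell. FLT3 itself went up from 415 and 428 CPM to 501 and 514 CPM (log2 fold change 0.27, SE 0.04, adjusted p = 0.000135). Of the STAT5 targets, PIM1, a survival kinase, rose from 69.2 and 65.8 CPM to 80.3 and 83.2 CPM (log2 fold change 0.28, SE 0.05, adjusted p = 0.00101), and IL2RA, a cytokine receptor chain, from 44.8 and 47.2 CPM to 67.7 and 70.4 CPM (log2 fold change 0.59, SE 0.06, adjusted p = 8.79e-06). Another member of the list, BCL6, a transcriptional repressor, rose from 2.26 and 1.48 CPM to 4.42 and 4.79 CPM (log2 fold change 1.31, SE 0.22, adjusted p = 0.000375). Whether STAT5 raises or lowers each of these genes in these cells was not tested. In the list of the FLT3 and STAT5 pathway, 9 of 29 tested genes were lower and 9 higher, with a median of -0.12. That is 31.0% in each direction, against 15.6% lower and 13.6% higher of all genes. Among those lower were PIM3 (log2 fold change -0.35), CCND3 (-0.30) and CCND2 (-0.22), while PIM2 and BCL2L1 were not called.

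**Figure D2:**
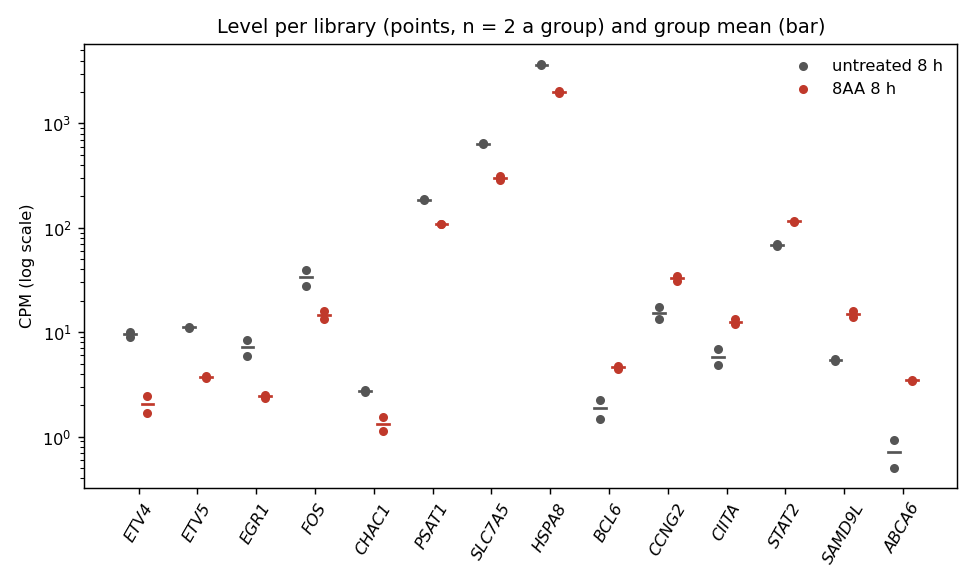
Level of 14 genes in each library (points, CPM on a log scale) with the mean of the 2 libraries of a group (bar), untreated 8 h in grey and 8AA 8 h in red. The points of the 2 groups do not overlap for these 14 genes, as for 62.1% of all genes tested, and replicates lie close together at high levels and further apart near 1 CPM.

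Most measured genes of amino acid transport and synthesis fell. ATF4, the transcription factor that induces these genes when amino acids run short, went from 324 and 329.6 CPM to 239.7 and 246 CPM (log2 fold change -0.43, SE 0.05, adjusted p = 1.18e-05). SLC7A5, the light chain of the main leucine transporter, fell from 633 and 645 CPM to 288 and 312 CPM, less than 1 in 2 of its untreated level (log2 fold change -1.09, SE 0.05, adjusted p = 2.3e-09). It was the most abundant of the genes that fell by at least 2-fold. The glutamine transporter SLC1A5 fell from 326 and 319.7 CPM to 206 and 224 CPM (log2 fold change -0.59, SE 0.05, adjusted p = 1.28e-06) and the arginine transporter SLC7A1 from 291 and 304 CPM to 202 and 205 CPM (log2 fold change -0.55, SE 0.04, adjusted p = 7.11e-07). PSAT1, an enzyme of serine synthesis, fell from 187 and 184 CPM to 109.8 and 108 CPM (log2 fold change -0.76, SE 0.05, adjusted p = 3.96e-08). CHAC1, which degrades glutathione, was low throughout and went from 2.81 and 2.68 CPM to 1.13 and 1.53 CPM (log2 fold change -1.03, SE 0.24, adjusted p = 0.00407). Of 34 tested genes of the ATF4 list, 21 were lower and 1 higher, which is 61.8% lower against 15.6% of all genes, with a median of -0.32. The exception was DDIT4, an inhibitor of mTORC1, which rose from 8.68 and 8.73 CPM to 12.6 and 12.05 CPM (log2 fold change 0.50, SE 0.16, adjusted p = 0.0306). Its call was lost without any 1 of the 4 libraries, with an edgeR adjusted p of up to 0.104 without either untreated library. DDIT3, the stress factor CHOP, was at 9.13 and 8.78 CPM and 9.29 and 9.28 CPM and was not called (edgeR adjusted p = 0.727).

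Chaperones were the list with the highest share of falls. Of 27 tested heat shock genes, 23 were lower and 0 higher (85.2% lower), with a median of -0.36, and 22 to 24 were lower under the 14 alternatives of scaling, filter, fit and libraries. None of them fell by 2-fold. HSPA8, the constitutive HSP70, fell from 3587 and 3693 CPM to 1941 and 2028 CPM (log2 fold change -0.88, SE 0.05, adjusted p = 1.14e-08). HSP90AA1 fell from 3434 and 3505 CPM to 2355 and 2443 CPM (log2 fold change -0.53, SE 0.04, adjusted p = 3.93e-07), and HSP90AB1 from 2723 and 2653 CPM to 2203 and 2237 CPM (log2 fold change -0.28, SE 0.04, adjusted p = 0.000106). By CPM these 3 were the most abundant of all genes called lower. The co-chaperones HSPH1 and DNAJA1 had log2 fold changes of -0.56 and -0.56. HSPA8, HSP90AA1 and HSP90AB1 have many processed pseudogenes, and their reads may have been shared with those. In the endoplasmic reticulum, 13 of 28 genes of the unfolded protein response were lower and 0 higher (46.4%). HSPA5, its central chaperone BiP, fell from 1072 and 1082 CPM to 725 and 749 CPM (log2 fold change -0.55, SE 0.04, adjusted p = 3.33e-07), and XBP1, its transcription factor, had a log2 fold change of -0.49.

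MYC and most genes of ribosome production fell. MYC, the transcription factor that drives them, went from 677 and 684 CPM to 495 and 509.7 CPM (log2 fold change -0.44, SE 0.04, adjusted p = 4.97e-06). Of 39 tested MYC targets and ribosome biogenesis genes, 31 were lower and 2 higher, 79.5% lower, with a median of -0.35. NCL (nucleolin), an organizer of the nucleolus, fell from 2574 and 2420.2 CPM to 1924 and 1922 CPM (log2 fold change -0.38, SE 0.04, adjusted p = 1.87e-05). RRP12, which exports ribosomal subunits, fell from 118 and 120.5 CPM to 79.2 and 78.6 CPM (log2 fold change -0.60, SE 0.05, adjusted p = 1.28e-06), and NOP16 from 105 and 108 CPM to 70.9 and 73.9 CPM (log2 fold change -0.56, SE 0.05, adjusted p = 3.65e-06). The 2 members that rose, MXD3 and MXD4, encode partners of MAX that oppose MYC. MNT, another partner of this kind, fell (log2 fold change -0.32, adjusted p = 0.00146), and MXD1 and MXI1, also of this kind, were not called. MXD4 rose from 44.1 and 42.6 CPM to 63.6 and 70.7 CPM (log2 fold change 0.63, SE 0.06, adjusted p = 3.65e-06). Of the ribosomal protein genes, RPL13A had a log2 fold change of 0.19 and RPS2 of 0.16, both called. Without 8AA replicate B the edgeR adjusted p was 0.144 for RPL13A and 0.298 for RPS2, without untreated replicate A 0.13 and 0.162, and without untreated replicate B RPS2 had 0.0847. TERT, the telomerase reverse transcriptase, fell from 10.4 and 12.1 CPM to 4.72 and 4.704 CPM (log2 fold change -1.26, SE 0.16, adjusted p = 3.61e-05).

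To show what these promoters hold, the 250 bases before the annotated start were searched on both strands in the RefSeq promoters of build GRCh38.p14, in which 9561 of the tested genes had an entry. The E-box CACGTG, the site of MYC and MAX among other factors, was in 13.1% of the promoters of genes called lower, 7.07% of those called higher, 9.19% of all tested and 6.49% of all promoters in the set. Genes called lower were also more highly expressed, and the part of that in these shares was not tested. The element TGATGNAA, which C/EBP and ATF factors bind, was in 1.69% of the lower, 1.75% of the higher and 1.37% of all tested. The cyclic AMP response element TGACGTCA was in 3.95% of the lower and 2.21% of the higher. Within the lists, 3 of 25 ATF4 list promoters held TGATGNAA and 3 of 30 promoters of the MYC list held the E-box. The share of the MYC list was near the 9.19% of all tested. That of the ATF4 list was above the 1.37% of all tested, but rests on 3 genes. Among these members, MXD4, with the E-box, rose (log2 fold change 0.63). ATF3, with TGATGNAA, was not called (log2 fold change -0.32, edgeR adjusted p = 0.346). The stretches around the motifs of the 4 members that held one and fell are printed here to show where it lies, 5′ to 3′ on the strand of the gene and with the motif in capitals, which in CHAC1 is the reverse complement of TGATGNAA. ASNS (asparagine synthetase) is at chr7:97872429-97872516 on the minus strand, CHAC1 at chr15:40953222-40953309 on the plus strand, UTP20 at chr12:101280055-101280104 on the plus strand and MNT at chr17:2401208-2401293 on the minus strand.
ASNS: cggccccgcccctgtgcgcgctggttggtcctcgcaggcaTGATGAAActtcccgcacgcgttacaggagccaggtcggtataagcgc
CHAC1: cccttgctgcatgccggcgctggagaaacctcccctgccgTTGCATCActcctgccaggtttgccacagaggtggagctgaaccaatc
UTP20: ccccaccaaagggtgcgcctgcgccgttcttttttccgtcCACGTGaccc
MNT: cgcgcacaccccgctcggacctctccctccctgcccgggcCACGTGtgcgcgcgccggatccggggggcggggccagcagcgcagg
ASNS, UTP20 and MNT had log2 fold changes of -0.45, -0.51 and -0.32, and the fall of CHAC1 is given above. A motif in this window is a description and not a site of binding.

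Many genes of DNA replication fell. Of 48 tested replication and G1/S genes, 28 were lower and 3 higher (58.3% lower), with a median of -0.21. RRM2, a subunit of ribonucleotide reductase, fell from 353 and 338 CPM to 229 and 230.0 CPM (log2 fold change -0.59, SE 0.04, adjusted p = 1.42e-07). CDC6, which loads the replicative helicase, fell from 95.4 and 96.5 CPM to 62.1 and 65.3 CPM (log2 fold change -0.59, SE 0.05, adjusted p = 1.28e-06), and MCM4, a subunit of that helicase, from 1011 and 1034 CPM to 784 and 798 CPM (log2 fold change -0.37, SE 0.04, adjusted p = 9.92e-06). Of 41 mitotic genes, 6 were lower and 7 higher, which at 14.6% and 17.1% is near the 15.6% and 13.6% of all genes. CDC25A, a phosphatase that activates cyclin-dependent kinases, was the member that fell most, from 87.2 and 88.4 CPM to 51.4 and 56.3 CPM (log2 fold change -0.70, SE 0.06, adjusted p = 6.93e-07), and KIF20A, a mitotic kinesin, rose from 71.9 and 70.6 CPM to 84.8 and 86.9 CPM (log2 fold change 0.27, SE 0.05, adjusted p = 0.000913). The count of mitotic genes called higher depended on the scaling and reached 15 by library size only, and it was 3 without untreated replicate B. The count of those called lower was 3 without untreated replicate A and 1 without 8AA replicate B. In DNA damage repair, 17 of 32 genes were lower (53.1%, against 15.6% of all genes) and 0 higher. Among those lower was XRCC2 (40.03 and 43.5 CPM to 27.8 and 30.04 CPM, log2 fold change -0.53, SE 0.07, adjusted p = 7.58e-05). ATM, the damage kinase, was not called (edgeR adjusted p = 0.28).

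Many genes of lipid synthesis fell. Of 37 tested genes of cholesterol and fatty acid synthesis, 19 were lower and 3 higher (51.4% lower), with a median of -0.26. SQLE, an enzyme of sterol synthesis, fell from 183 and 185 CPM to 113 and 114 CPM (log2 fold change -0.70, SE 0.06, adjusted p = 1.07e-06). The cholesterol exporters ABCA1 and ABCG1 were among the 3 that rose, ABCA1 from 30.6 and 31.7 CPM to 44.8 and 40.1 CPM (log2 fold change 0.44, SE 0.08, adjusted p = 0.00045). SREBF2, the transcription factor of the pathway, was not called (edgeR adjusted p = 0.148). Of 34 hypoxia and glycolysis genes, 12 were lower and 2 higher (35.3% and 5.88%, against 15.6% and 13.6% of all genes). VEGFA went from 38.8 and 39.3 CPM to 24.5 and 22.03 CPM (log2 fold change -0.75, SE 0.07, adjusted p = 4e-06). Of 46 respiratory chain genes, 45 were not called and 1, UQCRB, was higher, with a median of 0.03. The count called higher was 6 by library size only, 5 with upper-quartile scaling, 4 without 8AA replicate A and 0 without untreated replicate A or 8AA replicate B, and UQCRB also lost its call without untreated replicate B (edgeR adjusted p = 0.055).

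**Figure D3:**
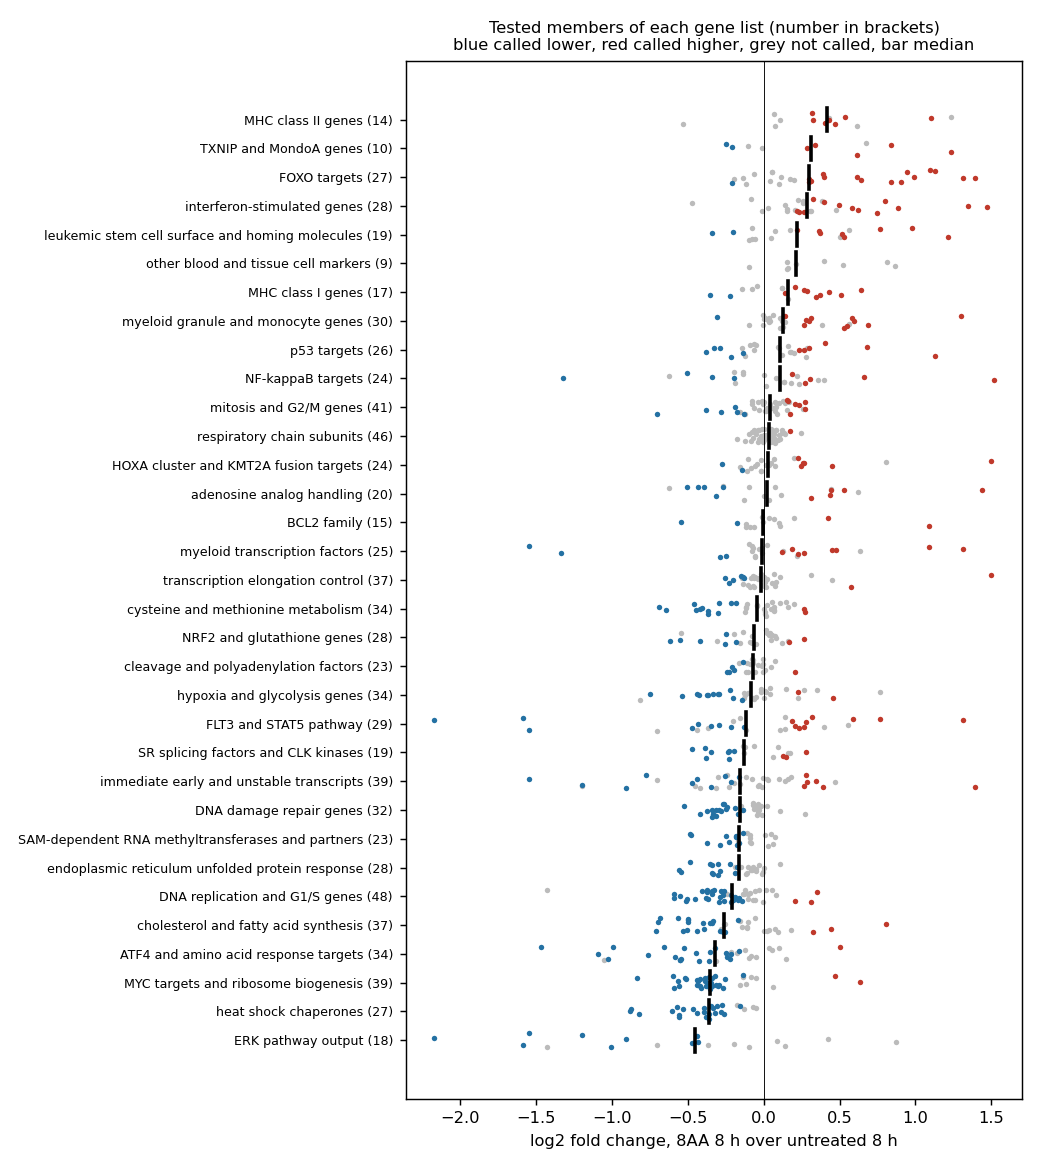
Log2 fold change of 8AA 8 h over untreated 8 h for each tested member of 33 gene lists (points), with the median of the list (black bar) and the number tested in brackets. Heat shock chaperones, MYC targets and the ATF4 list lie mostly left of 0, and MHC class II, interferon-stimulated genes and the TXNIP list lie mostly right of it.

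Some genes of antigen presentation rose, 7 of 14 in MHC class II (50%) and 9 of 17 in class I (52.9%), against 13.6% of all genes. CIITA, the master coactivator of MHC class II, rose from 4.87 and 6.84 CPM to 11.99 and 13.2 CPM (log2 fold change 1.104, SE 0.13, adjusted p = 2.5e-05). RFX5, which binds class II promoters, rose from 107 and 109 CPM to 135 and 136 CPM (log2 fold change 0.32, SE 0.05, adjusted p = 9.32e-05), and CD74, the invariant chain, from 214 and 218 CPM to 267 and 272 CPM (log2 fold change 0.32, SE 0.05, adjusted p = 0.000162). HLA-DRA rose from 12.4 and 13.02 CPM to 16.9989 and 16.6 CPM (log2 fold change 0.40, SE 0.12, adjusted p = 0.0178). Of 14 tested class II genes, 7 were higher and 0 lower, against 13.6% of all genes called higher, but 3 were called without untreated replicate A and 4 without any 1 of the other libraries. HLA-DRA lost its call without untreated replicate A (edgeR adjusted p = 0.0938), 8AA replicate A (0.0576) or untreated replicate B (0.0535). In class I, 2 genes were lower. HLA-E rose from 209.5 and 217 CPM to 266 and 285 CPM (log2 fold change 0.37, SE 0.05, adjusted p = 5.23e-05) and PSMB9, a subunit of the immunoproteasome, from 13.6 and 14.5 CPM to 20.04 and 19.97 CPM (log2 fold change 0.51, SE 0.08, adjusted p = 0.000177). HLA genes are alike in sequence and differ between people, and their reads may have been split.

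Of 28 tested interferon-stimulated genes, 13 were higher and 0 lower (46.4%), with a median of 0.29. SAMD9L, an antiviral factor that restrains myeloid growth, rose from 5.27 and 5.59 CPM to 16.1 and 14.1 CPM (log2 fold change 1.47, SE 0.12, adjusted p = 1.03e-06), and STAT2, a transducer of type I interferon, from 70.2 and 67.3 CPM to 116 and 115 CPM (log2 fold change 0.75, SE 0.05, adjusted p = 1.24e-07). APOBEC3F, a cytidine deaminase of the same defence, rose from 1.405 and 1.71 CPM to 3.19 and 4.21 CPM (log2 fold change 1.25, SE 0.21, adjusted p = 0.000355), with reads that may be shared with its paralogs. Some genes of the list of myeloid granule and monocyte genes rose. In bulk RNA, more cells of a type and more RNA per cell cannot be told apart. CSF1R, the receptor for macrophage colony stimulating factor, rose from 35.5 and 37.6 CPM to 57.2 and 60.6 CPM (log2 fold change 0.69, SE 0.06, adjusted p = 1.35e-06), CD36, a scavenger receptor, from 80.2 and 70.9 CPM to 120.1 and 106 CPM (log2 fold change 0.58, SE 0.08, adjusted p = 7.15e-05), and S100A8 from 8.93 and 9.42 CPM to 13.02 and 14.7 CPM (log2 fold change 0.60, SE 0.10, adjusted p = 0.000292). Of 30 genes of this list, 11 were higher (36.7%, against 13.6% of all genes) and 1, FCGR1A, lower (log2 fold change -0.31). Fewer were higher without untreated replicate B. The granule genes PRTN3 and LYZ were not called (edgeR adjusted p = 0.428 and 0.933).

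Of 10 genes of the TXNIP and MondoA list, 5 were higher and 2 lower (50% and 20%, against 13.6% and 15.6% of all genes). Fewer were higher without 8AA replicate A or untreated replicate B. TXNIP, an inhibitor of thioredoxin and of glucose uptake, rose from 168 and 159 CPM to 287 and 298 CPM (log2 fold change 0.84, SE 0.05, adjusted p = 4.24e-08), and its relative ARRDC3 from 2.61 and 2.03 CPM to 5.601 and 5.28 CPM (log2 fold change 1.23, SE 0.16, adjusted p = 5.04e-05). CCNG2, an unconventional cyclin of quiescent cells, rose from 17.3 and 13.5 CPM to 34.8 and 30.9 CPM (log2 fold change 1.095, SE 0.10, adjusted p = 2.7e-06), and SESN3, a stress sensor that restrains mTORC1, from 20.5 and 18.6 CPM to 40.5 and 32.9 CPM (log2 fold change 0.91, SE 0.13, adjusted p = 7.15e-05). Of 27 tested targets of FOXO factors, 15 were higher and 1 lower, with a median of 0.30, in a list also put together after the values had been seen. Of 26 p53 targets, 6 were higher and 5 lower (23.1% and 19.2%, against 13.6% and 15.6% of all genes), and 2 were lower without 8AA replicate A, which also ended the call of CDKN1A (edgeR adjusted p = 0.0557), and 3 without either untreated library. TP53INP1 rose from 11.5 and 9.47 CPM to 26.1 and 20.01 CPM (log2 fold change 1.13, SE 0.13, adjusted p = 1.27e-05), CDKN1A (p21) fell from 79.1 and 78.5 CPM to 66.8 and 68.8 CPM (log2 fold change -0.22, SE 0.06, adjusted p = 0.00997), and MDM2, the ubiquitin ligase of p53, was not called (edgeR adjusted p = 0.584).

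Of 15 tested genes of the BCL2 family, PMAIP1 and BID were lower and BMF and BIK higher, 13.3% in each direction and thus near the 15.6% and 13.6% of all genes. Of 14 alternatives, BID lost its call in 9, with an edgeR adjusted p of up to 0.27 without 8AA replicate A, and BIK in 6, with up to 0.202 without untreated replicate B and a loss without any 1 of the 4 libraries. BID was also lost without either untreated library (0.0824 without replicate A and 0.106 without replicate B). BCL2, the target of venetoclax, was at 248 and 249 CPM untreated and 245 and 231 CPM with 8AA (edgeR adjusted p = 0.323), and MCL1 at 248 and 230.2 CPM and 228 and 213 CPM (edgeR adjusted p = 0.121). BMF, a BH3-only activator of cell death, rose from 28.2 and 27.6 CPM to 59.9 and 58.8 CPM with hardly any spread (log2 fold change 1.09, SE 0.07, adjusted p = 4.3e-08). PMAIP1 (NOXA), which opposes MCL1, fell from 21.3 and 16.2 CPM to 13.8 and 11.9 CPM (log2 fold change -0.55, SE 0.13, adjusted p = 0.00589), a call that was lost without untreated replicate A (edgeR adjusted p = 0.104) or 8AA replicate B (0.0612).

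The methionine cycle and the enzymes that use its product were lower in part. Of 34 tested genes of cysteine and methionine metabolism, 12 were lower and 2 higher (35.3% and 5.88%, against 15.6% and 13.6% of all genes), with a median of -0.05. The study chose this pathway on samples of this series, so that its direction is not independent evidence. MAT2A, which makes S-adenosylmethionine, fell from 689 and 698 CPM to 520.2 and 523 CPM (log2 fold change -0.41, SE 0.04, adjusted p = 3.75e-06). CBS, which starts cysteine synthesis, fell from 20.97 and 21.2 CPM to 13.2 and 12.9974 CPM (log2 fold change -0.69, SE 0.09, adjusted p = 2.77e-05). AHCY, which clears the used cofactor, was not called (edgeR adjusted p = 0.458). Of 23 RNA methyltransferases and partners, 11 were lower (47.8%, against 15.6% of all genes) and 0 higher. Fewer were lower without untreated replicate A or 8AA replicate B. METTL16, which methylates MAT2A mRNA, fell from 91.9 and 94.4 CPM to 75.2 and 76.99 CPM (log2 fold change -0.29, SE 0.05, adjusted p = 0.000683), and NSUN2, a cytosine methyltransferase, from 194 and 194 CPM to 139 and 139 CPM (log2 fold change -0.48, SE 0.04, adjusted p = 1.36e-06). The catalytic pair METTL3 and METTL14 was at 79.2 and 77.1 CPM and 33.1 and 35.5 CPM untreated and at 79.2 and 80.3 CPM and 34.3 and 37.8 CPM with 8AA, and neither was called.

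The genes that handle adenosine itself split, with 5 of 20 lower and 5 higher (25% each, against 15.6% and 13.6% of all genes). Fewer were higher without either untreated library. ADK, the kinase that activates adenosine analogs, was at 101 and 103 CPM and 106 and 103 CPM and was not called (edgeR adjusted p = 0.606). SLC29A1, the main nucleoside carrier, fell from 122 and 127 CPM to 87.9 and 96.2 CPM (log2 fold change -0.44, SE 0.06, adjusted p = 5.02e-05), while ADA, which deaminates adenosine, rose from 61.6 and 62.3 CPM to 80.2 and 87.02 CPM (log2 fold change 0.43, SE 0.07, adjusted p = 0.000216). Among other single genes, ENPP2, the enzyme autotaxin, rose from 52.3 and 55.01 CPM to 131 and 128 CPM (log2 fold change 1.27, SE 0.05, adjusted p = 3.57e-10), with the smallest SE of the called genes that rose at least as much. ABCA6, a lipid transporter, had the largest rise of the genes with a mean of at least 2 CPM, from 0.502 and 0.924 CPM to 3.44 and 3.47 CPM (log2 fold change 2.25, SE 0.31, adjusted p = 6.14e-05). Its untreated libraries were below 2 CPM, so ABCA6 reached that mean only through the 8AA libraries. BCL3, a partner of NF-kappaB, rose from 1.15 and 1.11 CPM to 3.29 and 3.22 CPM (log2 fold change 1.52, SE 0.21, adjusted p = 6.27e-05), and TNF fell from 11.8 and 11.9 CPM to 5.06 and 4.46 CPM (log2 fold change -1.32, SE 0.12, adjusted p = 1.36e-06), while the NF-kappaB list had 4 lower and 5 higher of 24 (16.7% and 20.8%, near the 15.6% and 13.6% of all genes), and 2 lower without 8AA replicate A. MLLT3, a subunit of the elongation machinery and a fusion partner of KMT2A, rose from 0.552 and 0.785 CPM to 2.06 and 1.77 CPM (log2 fold change 1.496, SE 0.28, adjusted p = 0.000838), and the elongation list had 6 lower and 2 higher of 37 (16.2% and 5.41%, against 15.6% and 13.6% of all genes). The 6 became 3 without either replicate A and 2 without either replicate B.

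Further genes among the largest changes had other roles. RAB3IL1, an exchange factor of vesicle traffic, went from 5.22 and 5.08 CPM to 1.13 and 2.02 CPM (log2 fold change -1.67, SE 0.22, adjusted p = 5.6e-05), and ADM2, a peptide hormone induced in the amino acid response, from 4.77 and 6.14 CPM to 2.01 and 2.64 CPM (log2 fold change -1.22, SE 0.17, adjusted p = 9.8e-05). Both genes were below 7 CPM in every library. DNASE2, the lysosomal DNA nuclease, rose from 1.45 and 1.62 CPM to 5.36 and 5.82 CPM (log2 fold change 1.86, SE 0.26, adjusted p = 7.11e-05), and IGF1, a growth factor, from 2.31 and 1.85 CPM to 5.99 and 4.58 CPM (log2 fold change 1.34, SE 0.21, adjusted p = 0.000189). NFE2, a factor of megakaryocyte and erythroid genes, rose from 3.01 and 3.05 CPM to 6.68 and 6.27 CPM (log2 fold change 1.09, SE 0.16, adjusted p = 9.34e-05), whereas GATA2, a factor of blood stem cells, went from 0.953 and 0.878 CPM to 0.442 and 0.289 CPM (log2 fold change -1.33, SE 0.40, adjusted p = 0.0194), a low level at which its call was lost without untreated replicate A, untreated replicate B or 8AA replicate B, with an edgeR adjusted p of up to 0.159. Of 25 myeloid transcription factors, 8 were higher and 4 lower (32% and 16%, against 13.6% and 15.6% of all genes), the falls at about the share of all genes. Fewer were lower without untreated replicate A or either replicate B. Of 24 genes of the HOXA cluster and KMT2A fusion targets, 6 were higher and 2 lower (25% and 8.33%, against 13.6% and 15.6% of all genes). MEIS1, the partner of HOXA9, went from 82.9 and 83.3 CPM to 96.9 and 97.05 CPM (log2 fold change 0.22, SE 0.04, adjusted p = 0.00148). Of 28 NRF2 and glutathione genes, 6 were lower and 2 higher (21.4% and 7.14%, against 15.6% and 13.6% of all genes). GCLM, a subunit of the enzyme that starts glutathione synthesis, had a log2 fold change of -0.42. GCLC, the other subunit, rose (0.26), a call lost in 5 of 14 alternatives. Of 23 cleavage and polyadenylation factors, 5 were lower and 1 higher (21.7% and 4.35%, against 15.6% and 13.6% of all genes), and 2 were lower without untreated replicate A and 1 without 8AA replicate B. Of 39 immediate early and unstable transcripts, 10 were lower and 6 higher (25.6% and 15.4%, against 15.6% and 13.6% of all genes), with a median of -0.15. The share higher was thus near that of all genes, and fewer were higher without untreated replicate B.

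The 2 analogs differ in structure at position 8 of the base, an amino group in 8AA and chlorine in 8CA, and could be compared at the same dose and hour. This is 1 pair of compounds, tested directly between their libraries in the same fit. Of 12800 genes, 853 differed (6.66%), 474 lower with 8AA (3.7%) and 379 higher (2.96%). ETV4 was at 8.202 and 7.79 CPM with 8CA, -1.93 apart on the log2 scale (95% interval -2.26 to -1.59, edgeR adjusted p = 6.08e-06), and ETV5 at 9.71 and 9.81 CPM, -1.397 apart (-1.72 to -1.07, edgeR adjusted p = 8.79e-05). For these 2 genes the 8CA libraries lay below the untreated ones and well above those of 8AA. ATF4 was at 356 and 365 CPM with 8CA, above the untreated level, and the difference was -0.57 (-0.67 to -0.47, edgeR adjusted p = 6.21e-06). CHAC1 was at 2.17 and 3.27 CPM (difference -0.9996, -1.503 to -0.50). HSPA8 was at 2548 and 2690.1 CPM, between the untreated and the 8AA libraries (difference -0.40, -0.50 to -0.30). By list, 22 of 48 replication genes, 14 of 34 ATF4 genes, 14 of 39 MYC genes, 13 of 27 heat shock genes and 12 of 32 repair genes were lower with 8AA than with 8CA.

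Some genes stood higher with 8AA than with 8CA. PIM1 was at 52.2 and 50.8 CPM with 8CA, below the untreated level (difference 0.67, 95% interval 0.55 to 0.78, edgeR adjusted p = 6.08e-06), and IL2RA at 40.2 and 40.4 CPM (difference 0.78, 0.64 to 0.91). HSPA5 was lower with 8CA, at 613 and 638 CPM (difference 0.24, 0.15 to 0.32), and in the unfolded protein response 0 of 28 genes were lower and 5 higher with 8AA than with 8CA. Others did not differ by this test. MAT2A was at 528 and 553 CPM with 8CA, with a difference of -0.05 and an interval from -0.14 to 0.03, and ARRDC3 at 6.43 and 5.43 CPM, with -0.13 and an interval from -0.42 to 0.15. BMF was lower in the 8CA libraries than with 8AA, at 42.8 and 47.7 CPM (difference 0.39, 0.26 to 0.52). The number of differences rests on the shared spread of the 12 libraries and on each library. It was 180 in a fit of these 4 libraries alone and 365 to 468 without any 1 of them (365 without 8CA replicate B), and upper-quartile scaling turned the split to 345 lower and 497 higher.

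**Figure D4:**
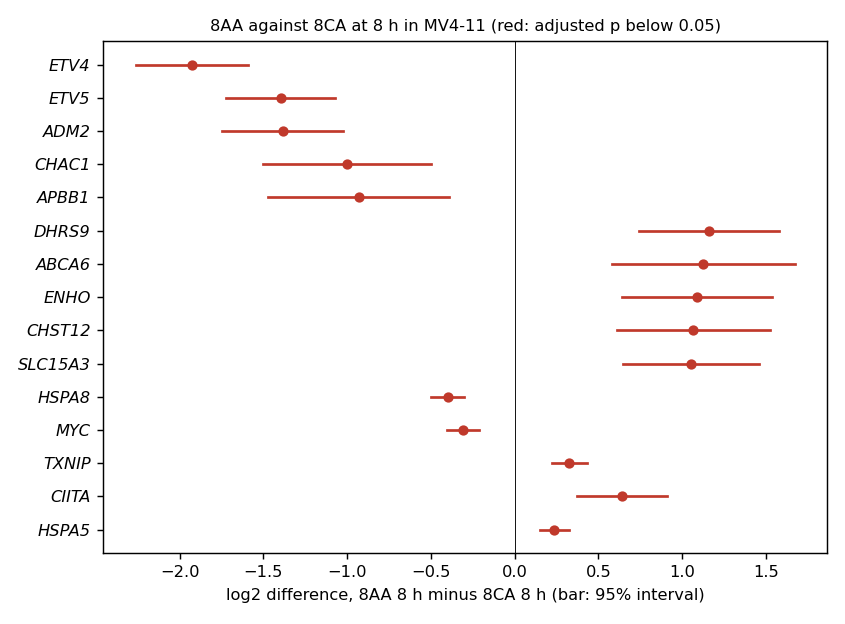
Difference between 8AA 8 h and 8CA 8 h in MV4-11 on the log2 scale (points) with its 95% interval (bars) for 15 genes, red where the adjusted p was below 0.05. ETV4, ETV5, ADM2, CHAC1 and APBB1 lie left of 0, and the interval of each red gene leaves out 0.

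At 24 h the response to 8AA was compared with that at 8 h as the difference of the 2 responses, each against the untreated cells of its hour. Of 12800 genes, 593 differed (4.63%), 272 lower at 24 h (2.12%) and 321 higher (2.51%). Of 41 mitotic genes, 33 had a lower response at 24 h and 0 a higher one, and the median of the list went from 0.04 at 8 h to -0.35 at 24 h. TOP2A, topoisomerase II, had log2 fold changes of 0.07 and -0.35 (difference -0.43, edgeR adjusted p = 0.00137), and CENPF, a kinetochore protein, 0.08 and -0.40. In MHC class II, HLA-DRA was at a log2 fold change of 0.40 and 1.94 (difference 1.54, edgeR adjusted p = 0.000246) and CD74 at 0.32 and 0.84, and 4 of 14 members had a higher response at 24 h. MYC had log2 fold changes of -0.44 and 0.09 (difference 0.53, edgeR adjusted p = 0.00063). TERT had -1.26 and -0.15, with an edgeR adjusted p of 0.0101 for the difference, and 11 of 39 genes of the MYC list had a higher response at 24 h. ETV4 had a log2 fold change of -1.61 at 24 h, and the difference was not called (edgeR adjusted p = 0.144). Of the 2000 falls at 8 h, 1061 (53.1%) were also called lower at 24 h, which is 54.3% of the falls at 24 h, and 844 rises were shared, 48.5% of those at 8 h and 47.8% of those at 24 h. Of all 12787 genes compared, 1953 were called lower and 1767 higher at 24 h. The 593 genes fell to 136 without untreated 24 h replicate B, to 175 without 8AA 24 h replicate A, to 208 without untreated 8 h replicate B, to 306 without untreated 24 h replicate A, to 352 without 8AA 8 h replicate B and to 393 without untreated 8 h replicate A.

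**Figure D5:**
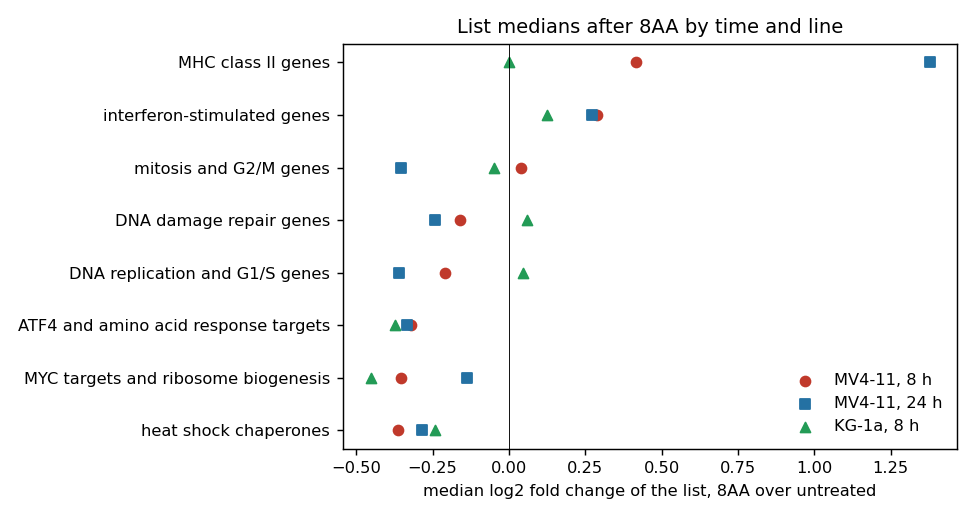
Median log2 fold change of 8AA over untreated cells of the same hour and line for 8 gene lists, MV4-11 at 8 h (red circles), MV4-11 at 24 h (blue squares) and KG-1a at 8 h (green triangles). The mitotic list moves left and MHC class II moves right between 8 h and 24 h, and the replication list lies near 0 in KG-1a. The MHC class II median of KG-1a has little meaning, since CD74 and the HLA-D genes had almost no reads there.

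In KG-1a the same dose and hour gave a response that differed from that of MV4-11 in 1559 of 14055 genes (11.1%), 506 lower in MV4-11 (3.6%) and 1053 higher (7.49%). This split depended on the filter on low counts and on the scaling, which gave 1007 lower and 722 higher without a filter, 818 and 839 when each library had to hold 10 counts or more, and 694 and 880 when only the library size was used, and 969 genes differed without KG-1a 8AA replicate B. Of 48 replication genes, 24 had a lower response in MV4-11 and 1 a higher one, and the median of the list in KG-1a was 0.05. RRM2 had a log2 fold change of -0.01 in KG-1a (difference -0.55, edgeR adjusted p = 5.18e-07), where it was at 342 and 347 CPM untreated and 339 and 346 CPM with 8AA. DUSP6 and SPRED2 fell further in KG-1a, DUSP6 at -2.11 (difference 1.66, edgeR adjusted p = 4.41e-08) and SPRED2 at -1.36 (difference 0.95). SLC7A5 also fell further there, at -1.52 (difference 0.46), as did MYC at -0.91 (difference 0.51). For heat shock genes 7 of 27 had a lower response in MV4-11 and 2 a higher one. ENPP2, CSF1R and IL2RA were near 0 CPM in KG-1a and FLT3 below 1 CPM, so their responses could not be compared. Of the genes called lower in MV4-11, 1106 were also called lower in KG-1a, 55.3% of those in MV4-11 and 47.8% of those in KG-1a, and 588 were called higher in both, 33.8% and 32.6%. Of all 12772 genes compared, 2316 were called lower and 1805 higher in KG-1a. The MV4-11 calls here come from the fit of its 12 libraries and the KG-1a calls from the fit of all 24. In the fit of all 24, MV4-11 had 1636 falls and 2159 rises, so the shared counts join calls of unlike scaling.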

How the data were processed

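RNA from MV4-11 and KG-1a cells was sequenced in 24 libraries. The authors deposited raw counts of reads per gene, and the submitters' processing notes name Trimmomatic, STAR 2.6.0, HTSeq 0.11.1 and edgeR, with the builds hg19 and hg38 in no stated role. Whether strand was used is not given in the sources used here, and reads of overlapping or antisense genes cannot be told apart. Counts were filtered with filterByExpr (minimum count 10), scaled by TMM and tested with edgeR 4.0.16 (R 4.3.3) by the quasi-likelihood test over the 12 MV4-11 libraries, with 1 coefficient per group. Differences between lines were fitted to all 24 libraries. P-values were adjusted by Benjamini-Hochberg with a threshold of 0.05, and DESeq2 1.42.0 was an alternative. The main comparison was tested on counts simulated for the 12 MV4-11 libraries with known changes and no effect of the letters A and B. The other comparisons, the lists and the promoter search were not tested in this way. Genes were named by rule. These were the 15 called genes with the lowest and the 15 with the highest log2 fold change at a mean of at least 2 CPM and with no overlap between groups, the 5 most abundant called in each direction, up to 4 called members of each list in each direction by p and its 3 most abundant uncalled members, a short set of genes fixed by name, and the 5 most extreme called genes in each direction of each test of a difference. ASNS, UTP20, MNT, PECAM1, NKG7, HBB and ALAS2 fall outside it and were chosen after their values were seen. The same holds for PIM3, CCND2, CCND3, DUSP4, ATF3, MXD1 and MXI1. The ERK and FOXO lists were also added after the values were seen. The members and lists were chosen with earlier results of these data known. A few items are not reported here.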

Additional observations from a re-analysis of the deposited data

Results flagged for a closer look

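The response to 8AA differed between 24 h and 8 h in 593 genes and between MV4-11 and KG-1a in 1559 genes, by the test of the difference itself. Among the named genes, some were called in opposite directions in the 2 responses, and the difference was called too. Between 24 h and 8 h these were DDIT4 (log2 difference -1.197), ABCA1 (-0.68), KIF20A (-0.48), DLGAP5 (-0.54), NEK2 (-0.61), CCNB2 (-0.55) and ANKRD33B (-1.15), which had risen at 8 h, and FAM86HP (1.48), which had fallen at 8 h and whose reads may be shared with its gene family. Between MV4-11 and KG-1a, BCL3 (2.02), SEL1L3 (1.496), ACTG1 (0.40), PIM1 (0.68) and DYRK1B (1.86) rose in MV4-11 and fell in KG-1a. TNFAIP3 (-1.12), PLK4 (-0.31), XRCC2 (-0.92) and RHOH (-1.13) fell in MV4-11 and rose in KG-1a. Some of these directions rest on calls at 8 h in MV4-11 that were lost in part of 14 alternatives. The calls of ANKRD33B and FAM86HP were lost in 5 each, of DDIT4 and CCNB2 in 4 and of NEK2 in 2. That of PLK4 was lost in 7, library size only and upper-quartile scaling among them, those of TNFAIP3 and RHOH in 2 each and that of ACTG1 in 1. ABCA1, KIF20A, DLGAP5, BCL3, SEL1L3, PIM1, DYRK1B and XRCC2 kept theirs in all 14. Why these responses differ was not tested.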

How the results depend on the processing

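The count of 3742 genes called in the main comparison lay within 1.5 times under each alternative except a log2 fold change of at least 1, which left 194. It was 3769 with DESeq2's size factors, 2696 with DESeq2's Wald test, 4063 without a filter, 2995 with only the 6 MV4-11 libraries of 8 h in the fit, an alternative chosen after seeing the data, and 2577 to 3019 without 1 library. The 1742 called higher became 1077 by DESeq2's Wald test and 1086 without untreated replicate A. For 8AA against 8CA, 853 genes became 180 with only those groups, 1369 with the replicate block, 556 by DESeq2's Wald test, 26 at a log2 difference of at least 1, and 365 to 468 without 1 library. For 24 h minus 8 h, 593 became 952 without a filter, 1123 with the replicate block, 29 at a log2 difference of at least 1, and 136 to 445 without 1 library. For MV4-11 minus KG-1a, 1559 became 164 at a log2 difference of at least 1 and 969 to 1299 without 1 library. The replicate block, the letter A or B as a covariate, gave 4444 genes in the main comparison and 1491 between lines. Same-lettered libraries deviated together over 8996 genes among the 3 groups of 8 h in MV4-11 (r = 0.43, 0.47 and 0.61, with 0.47 in the main comparison) and with the treated 24 h groups (0.17 to 0.47), whereas the untreated 24 h group had r of -0.38 to -0.05 with the others. The labels do not say that a letter marks a shared culture or day, so whether the letters pair the libraries is not known. With 14 alternatives, 148 of 212 named genes called stayed called in each, 64 lost the call in at least 1, and none changed direction. The median of 22 lists was at least 0.1 from 0, and that of the FLT3 and STAT5 list alone among them changed sign. The causes were not tested. With 2 libraries a group, the smallest called change was 0.11 on the log2 scale.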

Other observations

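DYRK1B, a kinase linked to quiescence, was at 11.9 and 11.6 CPM untreated and 24.3 and 24.2 CPM with 8AA in MV4-11 (log2 fold change 1.05, SE 0.08, adjusted p = 7.11e-07), and at 6.32 and 4.996 CPM untreated and 2.81 and 3.73 CPM with 8AA in KG-1a. HAVCR2 (TIM-3), a surface molecule of leukemic stem cells, rose from 1.15 and 1.29 CPM to 3.14 and 2.599 CPM (log2 fold change 1.21, SE 0.23, adjusted p = 0.0011). Of 19 tested surface and homing molecules of leukemic stem cells, 8 were higher and 2 lower (42.1% and 10.5%, against 13.6% and 15.6% of all genes). Those lower were IL1RAP and ITGB2, while CD33, CD44, ITGA4 and ITGA5 were not called. SRSF2 and SRSF7, splicing factors of the SR family, fell with log2 fold changes of -0.39 and -0.38. By edgeR 8 of 19 members of their list were lower and 3 higher (42.1% and 15.8%, against 15.6% and 13.6% of all genes). The 8 became 5 without untreated replicate A or 8AA replicate B, and the 3 higher became 0 without 8AA replicate A or untreated replicate B.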
